A study of Mus musculus with 12 samples.

Results

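Antioxidant genes limit the damage done by superoxide, peroxides and reactive aldehydes, and many of them are transcribed under the control of NRF2, the transcription factor encoded by Nfe2l2. Under resting conditions KEAP1 holds NRF2 for degradation, and oxidants or electrophiles that modify KEAP1 let NRF2 reach the nucleus, where it pairs with small MAF proteins on antioxidant response elements. BACH1 occupies the same elements as a repressor, above all at Hmox1. Cardiac muscle is rich in mitochondria, which makes the mitochondrial and peroxisomal enzymes that remove superoxide and hydrogen peroxide abundant transcripts of the heart.

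The 10 genes described here were every row of the raw count table whose symbol was Hmox1, Nqo1, Txnrd1, Gclc, Gclm, Srxn1, Gsta3, Gpx3, Sod2 or Cat, 10 of the 55401 genes in the table. All 10 passed the filter on low counts, as did 17699 genes in all. They were chosen by a list drawn up with their levels in the 4 groups already known, so their levels and the calls made on them are a description and carry no p-value here. Hmox1 encodes haem oxygenase, and Nqo1 a quinone reductase. Txnrd1 encodes cytosolic thioredoxin reductase and Srxn1 sulfiredoxin, which reactivates overoxidised peroxiredoxins. Gclc and Gclm encode the catalytic and modifier subunits of glutamate-cysteine ligase, the first step of glutathione synthesis. Gsta3 encodes an alpha class glutathione transferase, and Gpx3 the secreted glutathione peroxidase of plasma. Sod2 encodes the manganese superoxide dismutase of mitochondria and Cat the peroxisomal catalase. Hmox1, Nqo1, Txnrd1, Gclc, Gclm, Srxn1 and Gsta3 are textbook NRF2 targets, whereas Sod2, Cat and Gpx3 also answer to other factors.

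RNA of mouse left ventricle was sequenced in 12 libraries, 3 in each of 4 groups. The mice were wild type (WT) or carried Prkca T497A, a change of a threonine to alanine in protein kinase C alpha, and at 10 weeks of age they had either sham surgery or transverse aortic constriction (TAC) around a 27-gauge needle. TAC narrows the aortic arch and loads the left ventricle with pressure. Tissue was taken 1 week later, so all groups shared the age of 11 weeks, and the 4 groups were WT sham, WT TAC, T497A sham and T497A TAC. The labels name left ventricle as tissue and cardiomyocyte as cell type, and give neither the sex nor the background strain of the mice. Separate animals behind the numbered libraries are not stated, and the p-values therefore rest on a spread that may be partly technical.

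The libraries held 58932759 to 72594085 counted reads, and levels are given as CPM, counts brought to a common library size with trimmed mean of M values (TMM) factors. A point mutation leaves no mark in gene counts, and Prkca was at 42.2 to 47.4 CPM in WT sham, 31.1 to 35.7 in T497A sham, 49.2 to 51.01 in WT TAC and 43.7 to 50.3 in T497A TAC. Nppa, which encodes atrial natriuretic peptide and rises in loaded ventricles, was at 84.2 to 96.4 CPM in WT sham, 2415 to 2793 in WT TAC, 103 to 241 in T497A sham and 206 to 478 in T497A TAC. Other transcripts set the T497A sham libraries apart: Xist was at 159.9 to 215 CPM in them and at most 0.751 CPM in the other 9, while Y-linked Ddx3y was at 0.0999 to 0.396 CPM in them and at 73.6 CPM or more elsewhere. Between the sham groups 104 autosomal genes were called and at least 4-fold apart, and 95 of them had the opposite sign between the TAC groups. Of the 104, 33 (31.7%) lay on chromosome 11, which carries Prkca and holds 8.25% of the autosomal genes tested. Group names are therefore those of the labels, and a difference by genotype cannot be told apart from what else separates the labelled groups. Because most of these genes turn sign between the surgery arms, a comparison of TAC with sham under 1 label, WT or T497A, may also cross genotypes, and the differences across labels are given beside it. One library, T497A sham 3, held 687 CPM of 4 atrial markers against 16.3 to 173 CPM in WT sham. Among the WT TAC libraries, replicate 2 had the most fibroblast and macrophage transcripts. Ventricular cardiomyocyte markers dominated every library, yet fibroblast, endothelial and macrophage markers were present in all 12, as in whole ventricular tissue.

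The antioxidant response element is usually written with the core TGACNNNGC, and TGAGNNNGC is a close form of it. RefSeq promoters of GRCm38.p6, 250 bases before to 50 bases after a start, were on hand for 8 of the 10 genes, in 10 entries. Matches on either strand were found in 4 of those 8: Gsta3, Srxn1, Txnrd1 and Gclm. For reference, 12.39% of 32851 promoters of the same 300 bases held TGACNNNGC, 17.65% held TGAGNNNGC and 27.79% held either. Gsta3 and Srxn1 are printed because both moved with surgery or genotype, in opposite directions, and both windows hold a match. Capitals mark the matches, and a match on the opposite strand reads as the reverse complement in the printed strand. Gsta3 is at chr1:21240335-21240634 and Srxn1 at chr2:152105274-152105573, both on the plus strand of GRCm38.p6.
Gsta3 promoter: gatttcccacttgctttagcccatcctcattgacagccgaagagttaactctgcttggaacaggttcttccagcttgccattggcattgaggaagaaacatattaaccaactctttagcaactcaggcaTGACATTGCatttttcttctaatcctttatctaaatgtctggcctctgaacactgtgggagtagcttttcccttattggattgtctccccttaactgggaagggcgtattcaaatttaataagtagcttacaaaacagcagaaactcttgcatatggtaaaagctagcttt
Srxn1 promoter: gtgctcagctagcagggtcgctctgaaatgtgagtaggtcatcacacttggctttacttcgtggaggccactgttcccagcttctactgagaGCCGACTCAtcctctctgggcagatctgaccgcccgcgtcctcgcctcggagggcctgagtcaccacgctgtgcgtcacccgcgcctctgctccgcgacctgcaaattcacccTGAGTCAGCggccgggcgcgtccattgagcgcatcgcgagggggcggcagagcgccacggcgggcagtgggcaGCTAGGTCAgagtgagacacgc
The Gsta3 window holds TGACATTGC on its own strand, starting 121 bases before the start of transcription. The Srxn1 window holds 3 matches: TGAGTCGGC on the opposite strand 158 bases before the start, TGAGTCAGC on its own strand 45 bases before it, and TGACCTAGC on the opposite strand 28 bases after it. Txnrd1 held TGACAAAGC on the opposite strand 92 bases before 1 of its annotated starts, and Gclm TGACGGTGC on the opposite strand 134 bases before its start. These are letters in a short window, and no binding was measured.

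**Figure D1:**
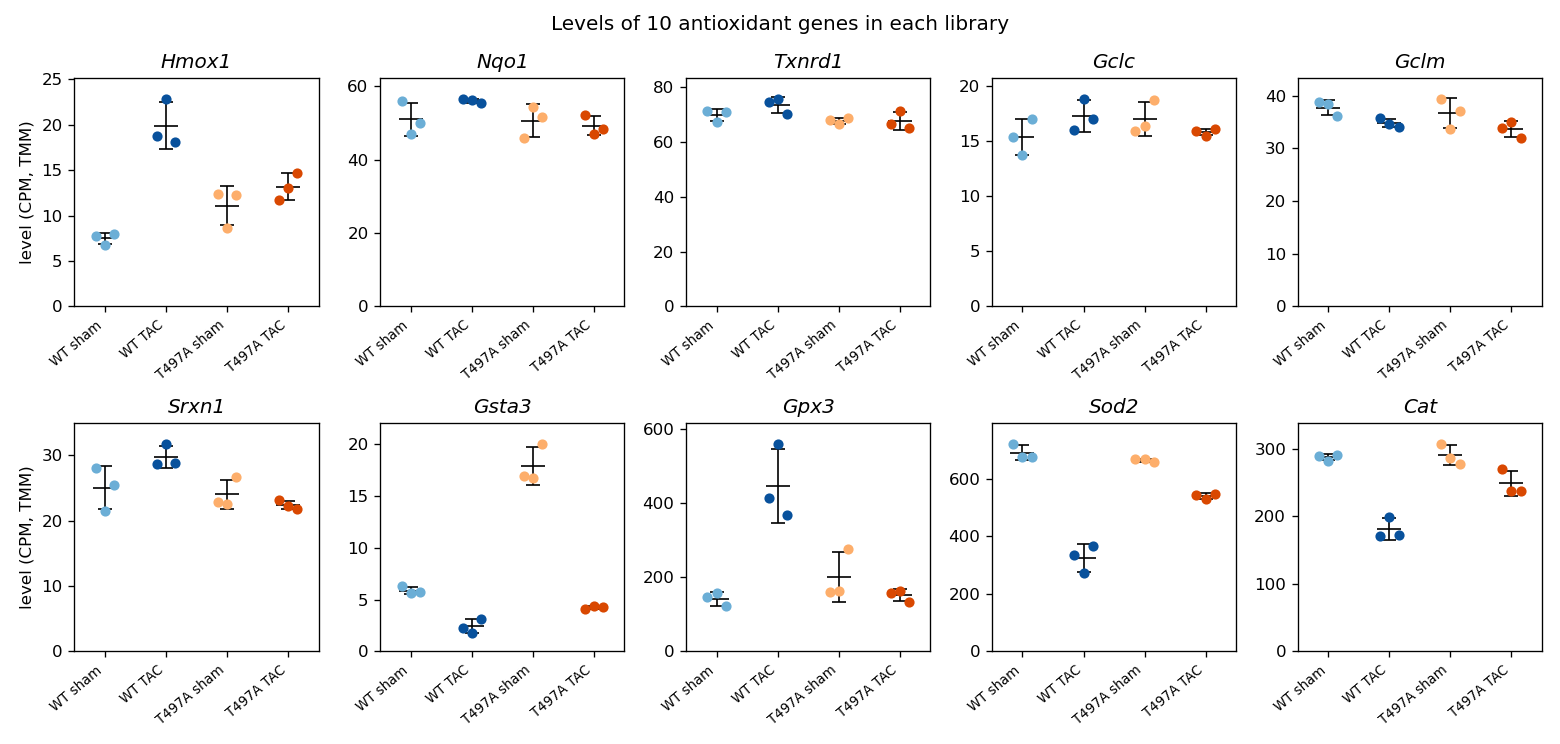
Level of each of the 10 genes in CPM (vertical axis, starting at 0) in the 3 libraries of WT sham, WT TAC, T497A sham and T497A TAC; points are libraries, and the bars give mean ± SD. Hmox1 and Gpx3 were highest in WT TAC, Sod2 and Cat lowest there, Gsta3 highest in T497A sham, and Nqo1, Txnrd1, Gclc and Gclm lay close together in all 4 groups.

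Levels differed widely between the 10 genes when taken per kilobase of exon. In WT sham, Cat stood at 109.9 CPM per kilobase, Gpx3 at 78.2, Sod2 at 69.1 and Nqo1 at 32.9. Txnrd1, Srxn1, Gclm, Hmox1 and Gclc lay between 4.08 and 9.84 CPM per kilobase, and Gsta3 was the lowest at 1.35. After TAC in WT mice the order of the leading genes changed: Gpx3 stood at 246 CPM per kilobase, above Cat at 69.3 and Sod2 at 32.5. In T497A TAC the leading gene was Cat at 95.03 CPM per kilobase, followed by Gpx3 at 83.6 and Sod2 at 53.99.

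The first comparison asked what pressure overload did to these genes in WT hearts. Hmox1, Gpx3 and, by a small margin, Srxn1 rose, while Sod2, Cat and Gsta3 fell, and Nqo1, Txnrd1, Gclc and Gclm were not called. The count was 3 of 10 called higher, where 25.9% of all genes tested were, and 3 of 10 called lower, where 24% were. A call means an adjusted p under 0.05 over all genes tested. Because the list was drawn up with these levels known, nothing is read from either count. The median log2 fold change was 0.11 over the 10 genes and 0.028 over all genes tested.

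Hmox1 (ENSMUSG00000005413.8, chromosome 8, 75093621 to 75100589, plus strand) measured 7.80, 6.77 and 7.93 CPM in the WT sham libraries. In WT TAC it measured 18.8, 22.8 and 18.1 CPM. Every WT TAC library lay above every WT sham library, and the log2 fold change was 1.41 ± 0.14 (SE), a fold of 2.65. The product of haem oxygenase is biliverdin, with iron and carbon monoxide released from haem, and macrophages that clear haem are rich in the enzyme. The summed level of 10 macrophage markers was 237 to 286 CPM in WT sham and 503 to 796 CPM in WT TAC, all 10 were called higher in WT TAC, and none was at 0 in any library. The part of macrophage RNA in the Hmox1 difference was not tested. In bulk tissue, fewer cells of a type and less RNA per cell cannot be told apart, here or in any result that follows.

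Gpx3 (ENSMUSG00000018339.11, chromosome 11, 54902453 to 54910377, plus strand) measured 147, 157 and 122 CPM in WT sham and 414, 559 and 367 CPM in WT TAC. The groups did not overlap, and the log2 fold change of 1.65 ± 0.24 was the largest rise among the 10 genes. WT TAC 2 was the highest library for Gpx3, for Hmox1 and for the fibroblast markers. The sum of 6 fibroblast markers was 782 to 894 CPM in WT sham and 3941 to 8029 CPM in WT TAC, with all 6 called higher. The part of fibroblast RNA in the Gpx3 difference was not tested. Without WT TAC 2 the log2 fold change of Gpx3 was 1.46 and that of Hmox1 was 1.29.

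Srxn1 (ENSMUSG00000032802.8, chromosome 2, 152105516 to 152111376, plus strand), whose promoter holds the 3 matches printed above, measured 28.01, 21.5 and 25.5 CPM in WT sham and 28.6, 31.7 and 28.8 CPM in WT TAC. The highest WT sham library lay just below the lowest WT TAC library. The log2 fold change was 0.25 ± 0.094, a fold of 1.19, and the call depended on single libraries. It was lost without WT sham 2 (log2 0.15), WT sham 3 (0.26), WT TAC 1 (0.27), WT TAC 2 (0.20), WT TAC 3 (0.27) or T497A TAC 2 (0.23).

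Sod2 (ENSMUSG00000006818.5, chromosome 17, 13006846 to 13040063, plus strand) fell from 721, 676 and 677 CPM in WT sham to 337, 271 and 368 CPM in WT TAC. The lowest sham library stood far above the highest TAC library, and the log2 fold change was -1.09 ± 0.087, or 0.471 of the sham level. Of the 50-base windows of Sod2 transcripts, 21.04% also occur in transcripts of other genes, so part of its count depends on how reads with several places were treated, which is not given in the sources used here.

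Cat (ENSMUSG00000027187.10, chromosome 2, 103453849 to 103485160, minus strand) measured 289, 282 and 291 CPM in WT sham and 171, 199.5 and 172 CPM in WT TAC. The groups did not overlap, and the log2 fold change was -0.67 ± 0.073. The 8 ventricular cardiomyocyte markers summed to 66939.7 to 74399 CPM in WT sham and 37100.5 to 43528 CPM in WT TAC, with 7 of 8 called lower. Counts from the mitochondrial genome made up 19.1 to 20.99% of the total in WT sham and 9.67 to 14.7% in WT TAC. The part of either in the lower Sod2 and Cat was not tested.

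Gsta3 (ENSMUSG00000025934.15, chromosome 1, 21240589 to 21265661, plus strand) measured 6.28, 5.65 and 5.70 CPM in WT sham and 2.30, 1.82 and 3.15 CPM in WT TAC. It was the least abundant of the 10 genes per kilobase, with 139 to 1203 reads per library, and its WT TAC libraries lay below all WT sham libraries. The log2 fold change was -1.28 ± 0.16, a level 0.413 of that in sham. Gsta3 thus fell in the same libraries in which Hmox1 rose, although both are textbook NRF2 targets.

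The other textbook targets moved little. Nqo1 (ENSMUSG00000003849.8, chromosome 8, 107388225 to 107403206, minus strand) measured 55.9, 47.1 and 50.1 CPM in WT sham and 56.5, 56.3 and 55.4 in WT TAC, a log2 difference of 0.14 ± 0.076. Txnrd1 (ENSMUSG00000020250.10, chromosome 10, 82833951 to 82897712, plus strand) measured 71.3, 67.2 and 70.7 CPM in WT sham and 74.6, 75.5 and 70.2 in WT TAC, a log2 difference of 0.075 ± 0.055. In both genes the sham and TAC libraries overlapped. The 2 subunits of glutamate-cysteine ligase lay on either side of 0. Gclc (ENSMUSG00000032350.9, chromosome 9, 77754535 to 77794485, plus strand) measured 15.4, 13.8 and 17.01 CPM in WT sham and 15.96, 18.8 and 17.02 in WT TAC, at log2 0.17 ± 0.095. Gclm (ENSMUSG00000028124.15, chromosome 3, 122245557 to 122270732, plus strand) measured 38.8, 38.4 and 36.2 CPM in WT sham and 35.7, 34.6 and 34.1 in WT TAC, at log2 -0.12 ± 0.066. All WT TAC libraries of Gclm were below the WT sham libraries, by a small margin. Exons of Gclm share 296 bases with Gm17494 on the opposite strand and 244 bases with the pseudogene Gm6061 on the same strand, and the strand setting of the counting is not given in the sources used here.

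The scale of the WT TAC libraries bears on these small differences. Their TMM factors were 1.13 to 1.21, against 0.910 to 0.988 in the other 9 libraries, and scaling by library totals alone moved the median of all genes in WT TAC against WT sham by 0.33 on the log2 scale. On library totals 7 of the 10 genes were called higher and 3 lower: Nqo1 then stood at log2 0.47, Txnrd1 at 0.41, Gclc at 0.50, Gclm at 0.22 and Srxn1 at 0.58. Over all genes tested, 8466 were then called higher and 1891 lower, against 4576 and 4255 with TMM factors. Hmox1 and Gpx3 stayed higher, and Sod2, Cat and Gsta3 lower, under every scaling run.

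Set against T497A sham in place of WT sham, the same WT TAC libraries gave the same direction for these 5 genes but other sizes for Gsta3 and Hmox1. Gsta3 stood at log2 -2.88 ± 0.16 against T497A sham, where WT sham gave -1.28. Hmox1 stood at 0.84 ± 0.14, where WT sham gave 1.41. Gpx3 was at 1.16 ± 0.24, Sod2 at -1.03 ± 0.087 and Cat at -0.68 ± 0.073. Both sets of differences share the WT TAC libraries. The labels alone say which sham group is the control of the WT TAC mice, and a change of genotype cannot be told apart from surgery in either.

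**Figure D2:**
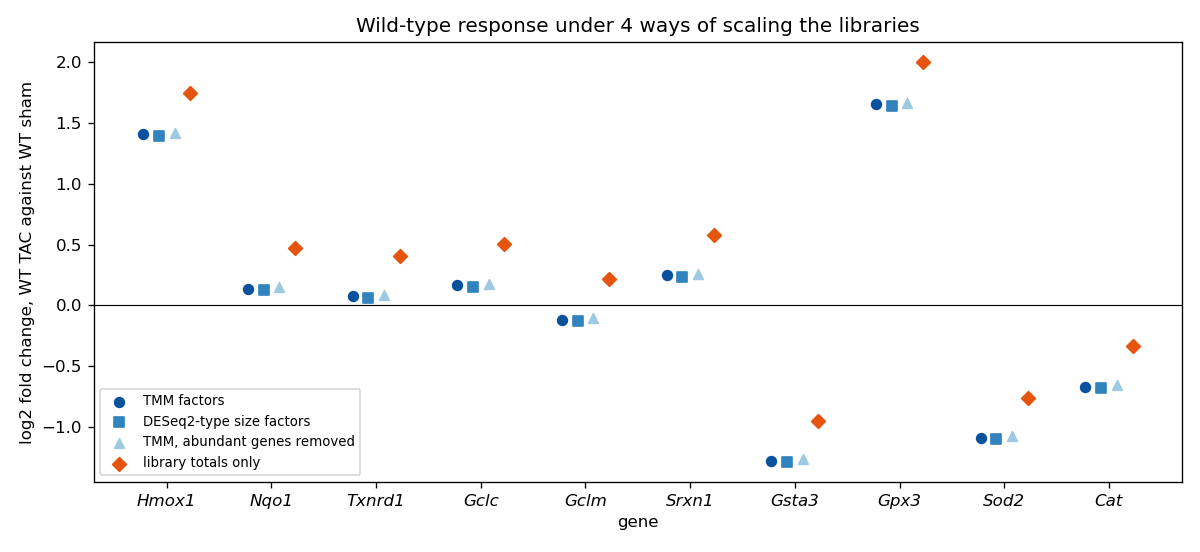
Log2 fold change of the 10 genes in WT TAC against WT sham (vertical axis) under 4 ways of scaling the libraries (symbols). The first 3 scalings lie on top of each other, and library totals shift all genes upward, which moves Gclm from -0.12 to 0.22.

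In mice labelled T497A, the same surgery was followed by smaller differences for Sod2 and Cat and by no call for Hmox1 or Gpx3. None of the 10 genes was called higher, where 12.9% of all genes tested were, and 3 of 10 were called lower, where 11.4% were. At an unadjusted p under 0.05 the count was likewise 0 higher and 3 lower, and DESeq2 and limma-voom also called none of the 10 higher. The shares of all genes at that threshold and by those tests are not given, so nothing is read from these counts. Gsta3, Sod2 and Cat were the 3 lower genes. This comparison also sets libraries rich in Xist against libraries with Y-linked transcripts, and the effect of surgery cannot be told apart from that difference.

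Gsta3 measured 16.97, 16.8 and 20.02 CPM in T497A sham and 4.11, 4.40 and 4.25 CPM in T497A TAC. The sham libraries were the highest of the whole series for this gene, and the log2 fold change was -2.07 ± 0.16, a level 0.237 of that in sham. Against WT sham, the T497A TAC libraries stood at a log2 difference of only -0.47 ± 0.16. The size of the fall under the T497A label thus depends on the high T497A sham libraries.

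Sod2 measured 669.7, 668 and 660.05 CPM in T497A sham and 544, 529 and 548 CPM in T497A TAC. The groups did not overlap, with a log2 fold change of -0.30 ± 0.086. The call was lost without T497A sham 1 (log2 -0.30), 2 (-0.30) or 3 (-0.31), or without T497A TAC 1 (-0.31) or 2 (-0.29), with the value itself little moved. Cat measured 307, 287 and 277 CPM in T497A sham and 270.1, 238 and 237 CPM in T497A TAC, a log2 fold change of -0.22 ± 0.072. The lowest T497A sham library was only just above the highest T497A TAC library. The call on Cat was lost on library totals (log2 -0.19), without any 1 of the WT sham libraries (-0.22 each), without T497A sham 1 (-0.18) or 2 (-0.23), and without T497A TAC 2 (-0.19) or 3 (-0.19). Cardiomyocyte markers summed to 72149 to 73688 CPM in T497A sham and 60943 to 66313 CPM in T497A TAC, and 4 of 8 were called lower. Mitochondrial genome counts went the other way, from 15.97 to 17.3% of the total in T497A sham to 19.2 to 19.8% in T497A TAC.

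Hmox1 measured 12.4, 8.59 and 12.3 CPM in T497A sham and 11.7, 13.1 and 14.7 CPM in T497A TAC. The groups overlapped, and the log2 difference was 0.25 ± 0.14. Against WT sham, in which Hmox1 was lower, the same TAC libraries stood at log2 0.81 ± 0.14. Macrophage markers summed to 273 to 308 CPM in T497A sham and 326 to 355 CPM in T497A TAC, and 4 of 10 were called higher.

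Gpx3 measured 159, 162 and 277 CPM in T497A sham and 157, 164 and 133 CPM in T497A TAC. The third T497A sham library, the one with 687 CPM of atrial markers, was the only library outside WT TAC above 164 CPM. The log2 difference was -0.40 ± 0.24 with that library and -0.08 without it, and neither was called. The atrial sum was 23.03 to 31.97 CPM in T497A TAC. The part of atrial tissue in the Gpx3 value of that library was not tested.

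The remaining 5 genes were not called after TAC under the T497A label. Nqo1 measured 45.8, 54.5 and 51.6 CPM in T497A sham and 52.1, 47.1 and 48.4 in T497A TAC. Txnrd1 measured 67.98, 66.4 and 68.6 CPM and 66.3, 71.3 and 65.2 CPM in the same groups. Srxn1 measured 22.8, 22.6 and 26.6 CPM in T497A sham and 23.1, 22.3 and 21.8 in T497A TAC. All 3 genes overlapped between the groups, with log2 differences from -0.10 to -0.0015. Gclc measured 15.9, 16.3 and 18.7 CPM in T497A sham and 15.9, 15.5 and 16.1 in T497A TAC, at log2 -0.10 ± 0.095. Gclm measured 39.4, 33.7 and 37.1 CPM and 33.9, 35.05 and 32.02 CPM, at log2 -0.12 ± 0.067. A difference that misses the threshold does not show that the groups were alike.

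**Figure D3:**
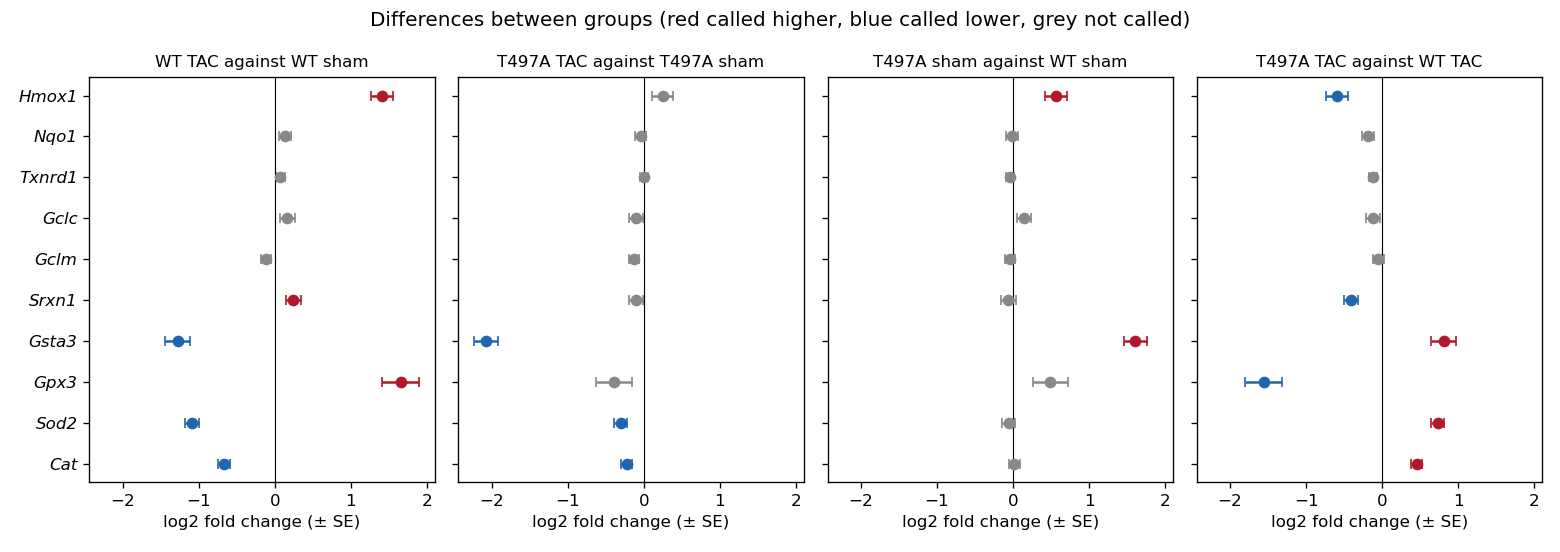
Log2 fold change ± SE (horizontal axis) of the 10 genes in 4 comparisons, with calls in colour. Gpx3 reached 1.65 in WT TAC against WT sham and -1.56 in T497A TAC against WT TAC, and Gsta3 reached 1.61 between the sham groups.

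The sham comparison sets libraries rich in Xist against libraries with Y-linked transcripts, and genotype cannot be told apart from that difference. Between the sham groups 2 genes were called, Gsta3 and Hmox1, both higher in the libraries labelled T497A. That was 2 of 10 called higher, where 2.99% of all genes tested were, and 0 of 10 called lower, where 2.8% were. At an unadjusted p under 0.05 none was lower either, nor by DESeq2 or limma-voom. Shares of all genes are not given for these, and nothing is read from them. Gsta3 stood at 5.87 ± 0.349 CPM (SD, n = 3) in WT sham and 17.9 ± 1.82 CPM (SD, n = 3) in T497A sham. This was a log2 difference of 1.61 ± 0.16, a fold of 3.05. No T497A sham library was below 16.8 CPM and no WT sham library above 6.28 CPM. Hmox1 stood at 7.50 ± 0.635 CPM (SD, n = 3) in WT sham and 11.1 ± 2.17 CPM (SD, n = 3) in T497A sham, at log2 0.56 ± 0.14. The call on Hmox1 was lost without any 1 of the WT sham libraries (log2 0.50 to 0.61), T497A sham 1 (0.47), T497A sham 3 (0.49), WT TAC 1 (0.56) or T497A TAC 2 (0.57).

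Gpx3 was not called between the sham groups, at log2 0.49 ± 0.24, and the value was 0.18 without T497A sham 3. Sod2 differed by -0.054 ± 0.086 and Cat by 0.014 ± 0.072 on the log2 scale. Nqo1, Txnrd1, Gclm and Srxn1 lay from -0.061 to -0.011, and Gclc at 0.14. None of the 10 macrophage, 6 fibroblast or 8 cardiomyocyte markers was called between the sham groups, while 2 of 5 endothelial markers and 1 of 5 mural markers were called lower and 1 of 6 erythroid markers higher in T497A sham. The endothelial sum was 783 to 820 CPM in WT sham and 618 to 713 CPM in T497A sham. Mitochondrial genome counts made up 19.1 to 20.99% of the total in WT sham and 15.97 to 17.3% in T497A sham. The part of these in the Gsta3 and Hmox1 differences was not tested.

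After TAC the 2 labels parted more. Sod2, Cat and Gsta3 were higher and Hmox1, Gpx3 and Srxn1 lower in T497A TAC than in WT TAC. That was 3 of 10 higher, where 17.8% of all genes tested were, and 3 of 10 lower, where 17.9% were. This comparison uses no T497A sham library in its difference, and leaving that group out of the fit gave 3 higher and 4 lower. The shares of all genes in that fit are not given, so nothing is read from its counts.

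Sod2 stood at 325 ± 49.4 CPM (SD, n = 3) in WT TAC and 540.4 ± 9.95 CPM (SD, n = 3) in T497A TAC, at log2 0.73 ± 0.087. Even so, T497A TAC lay below WT sham by 0.36 on the log2 scale. Cat stood at 181 ± 16.05 CPM (SD, n = 3) in WT TAC and 248 ± 18.9 CPM (SD, n = 3) in T497A TAC, at log2 0.46 ± 0.072. On library totals, which moved the median of all genes in this comparison by -0.25, the value for Cat was 0.20 and was no longer called. The order of the Sod2 levels ran from the sham groups, which were not called apart, through T497A TAC to WT TAC. Every T497A sham library lay just below every WT sham library.

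Gpx3 stood at 447 ± 99.95 CPM (SD, n = 3) in WT TAC and 152 ± 16.1 CPM (SD, n = 3) in T497A TAC, at log2 -1.56 ± 0.24. The T497A TAC level was within the spread of WT sham, at log2 0.10 ± 0.24 against it. Hmox1 stood at 19.9 ± 2.57 CPM (SD, n = 3) in WT TAC and 13.2 ± 1.48 CPM (SD, n = 3) in T497A TAC, at log2 -0.59 ± 0.14. Unlike Gpx3, Hmox1 in T497A TAC was above every WT sham library. Macrophage and fibroblast markers moved with these genes: all 10 and all 6 were called lower in T497A TAC than in WT TAC, and 7 of 8 cardiomyocyte markers were called higher. The part of these cell types was not tested.

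Srxn1 stood at 29.7 ± 1.73 CPM (SD, n = 3) in WT TAC and 22.4 ± 0.663 CPM (SD, n = 3) in T497A TAC, at log2 -0.41 ± 0.094, and the groups did not overlap. Gsta3 stood at 2.42 ± 0.672 CPM (SD, n = 3) in WT TAC and 4.25 ± 0.144 CPM (SD, n = 3) in T497A TAC, at log2 0.81 ± 0.16. Nqo1 (-0.19 ± 0.076), Txnrd1 (-0.12 ± 0.055), Gclc (-0.12 ± 0.094) and Gclm (-0.049 ± 0.066) were not called on the log2 scale. On library totals all 4 were called lower, giving 7 of 10, while Hmox1, Gpx3 and Srxn1 were lower, and Sod2 and Gsta3 higher, under every scaling run.

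**Figure D4:**
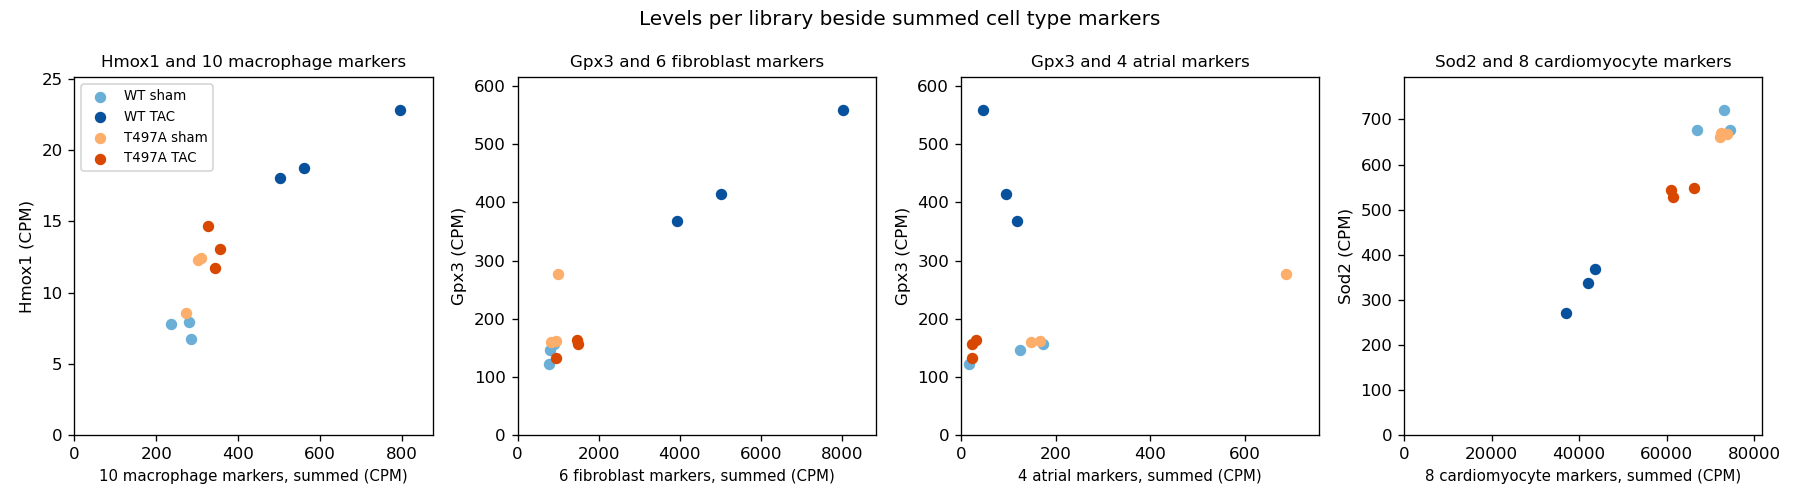
Hmox1, Gpx3 and Sod2 in CPM (vertical axes) beside summed marker levels in CPM (horizontal axes), 1 point per library, coloured by group. The 3 WT TAC libraries stand apart on the macrophage, fibroblast and cardiomyocyte axes, and T497A sham 3, at 277 CPM of Gpx3, stands apart on the atrial axis.

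The difference between the surgery responses under the 2 labels was taken as the interaction of genotype and surgery, on the log2 scale. It was called higher for 2 of the 10 genes, where 15.3% of all genes tested were, and lower for 3, where 14.2% were. The 2 higher were Sod2 at 0.79 ± 0.12 and Cat at 0.44 ± 0.10, whose fall after TAC was smaller under the T497A label. The 3 lower were Gpx3 at -2.05 ± 0.34, Hmox1 at -1.16 ± 0.20 and Gsta3 at -0.80 ± 0.22. Srxn1 stood at -0.35 ± 0.13 and was not called. Every one of these values draws on the T497A sham group, so the Xist and Ddx3y difference stands inside it. Of the 104 autosomal genes at least 4-fold apart between the sham groups, 95 had the opposite sign between the TAC groups. Such a turn of sign enters the interaction, and a different response to TAC cannot be told apart from it. On library totals Cat was at 0.14 and lost its call, and 8 genes were called lower.

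The gene of NRF2 itself was not called after surgery under either label. Nfe2l2 measured 78.1, 73.9 and 87.5 CPM in WT sham, 73.5, 81.6 and 72.8 in WT TAC, 91.6, 80.2 and 88.5 in T497A sham and 78.9, 91.7 and 111 in T497A TAC. By edgeR's quasi-likelihood test with Benjamini-Hochberg adjustment it did not pass after TAC in WT (log2 -0.072 ± 0.11, adjusted p = 0.61) or under the T497A label (0.11 ± 0.11, adjusted p = 0.49). Between the TAC groups it was 0.30 ± 0.11 higher in T497A TAC (edgeR adjusted p = 0.04), a call lost without WT sham 1, T497A sham 3, T497A TAC 2 or 3, or any WT TAC library (log2 0.17 to 0.36, adjusted p 0.05 to 0.19). mRNA level says nothing of the protein, whose stability is what KEAP1 sets.

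Keap1 measured 65.6, 59.9 and 62.3 CPM in WT sham and 54.2, 49.3 and 50.3 in WT TAC, a fall of 0.29 ± 0.058 on the log2 scale (edgeR adjusted p = 8e-04). On library totals this value was 0.045. In the T497A groups Keap1 went from 68.5, 66.7 and 62.9 to 57.4, 57.8 and 57.2 CPM, at log2 -0.20 ± 0.058 (edgeR adjusted p = 0.021). That call was lost without T497A sham 1 or 2 or any T497A TAC library (log2 -0.20 to -0.17, adjusted p 0.055 to 0.078). Bach1, the repressor of Hmox1, fell in WT by 0.27 on the log2 scale (edgeR adjusted p = 0.017), and the call was lost without WT sham 2 or 3 (log2 -0.25 to -0.20, adjusted p 0.057 to 0.09). On library totals Bach1 stood at 0.064. Under the T497A label Bach1 fell by 0.27 (edgeR adjusted p = 0.033), a call lost without T497A sham 1 or 3 or T497A TAC 2 or 3 (log2 -0.29 to -0.18, adjusted p 0.057 to 0.15).

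Txnip, which binds and inhibits thioredoxin, was the most variable of these regulators. It measured 383, 444 and 458 CPM in WT sham and 265, 228 and 275 in WT TAC, at log2 -0.74 ± 0.28 (edgeR adjusted p = 0.049). The call was lost without any 1 library other than T497A TAC 1 or 3 (log2 -0.82 to -0.67, adjusted p 0.058 to 0.16). It measured 789.9, 645 and 594 CPM in T497A sham and 507, 321 and 206 in T497A TAC, at log2 -0.97 ± 0.28 (edgeR adjusted p = 0.032). That call was lost without any T497A sham library, WT TAC 1 or 3, or T497A TAC 2 (log2 -1.06 to -0.85, adjusted p 0.051 to 0.10). The groups did not overlap in the WT comparison or in the T497A comparison.

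Beside the 10 genes, 128 other genes of the same pathways were listed, of which 127 were in the table and 121 passed the filter. Their lists were chosen with earlier results of these data known, so the counts, medians and calls on them are a description. After TAC in WT, 33 of the 121 were called higher and 53 lower, with a median log2 fold change of -0.14 against 0.028 over all genes tested, where 25.9% were higher and 24% lower. With the T497A label 16 were called higher and 36 lower, with a median of -0.11 against 0.0035 over all genes tested. There 12.9% of all genes tested were higher and 11.4% lower. Between the sham groups 6 of the 121 were higher, where 2.99% of all genes tested were, and 4 lower, where 2.8% were; DESeq2 called 13 higher and limma-voom 12. By edgeR the higher count was 11 without WT TAC 2, and the lower count was 2 without any 1 of the WT sham libraries or T497A sham 3, 1 without T497A sham 1 and 7 without T497A sham 2. Between the TAC groups 39 were higher and 27 lower in T497A TAC, with a median of 0.099 against -0.017 over all genes tested. In that comparison 17.8% of all genes tested were higher and 17.9% lower. On library totals the WT count was 58 higher and 34 lower, and the TAC group count 21 higher and 52 lower. Of all 17699 genes tested, 8466 were then higher and 1891 lower in WT. Between the TAC groups 1458 were then higher and 6874 lower. The count of calls after TAC in T497A moved with single libraries. It was 9 higher and 22 lower without T497A sham 3, 10 and 20 without T497A TAC 2, 23 lower without T497A TAC 1, and 8 higher without T497A TAC 3. Shares over all genes tested are not given for DESeq2, limma-voom or the fits without a library. Nothing is read from the counts of those fits.

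**Figure D5:**
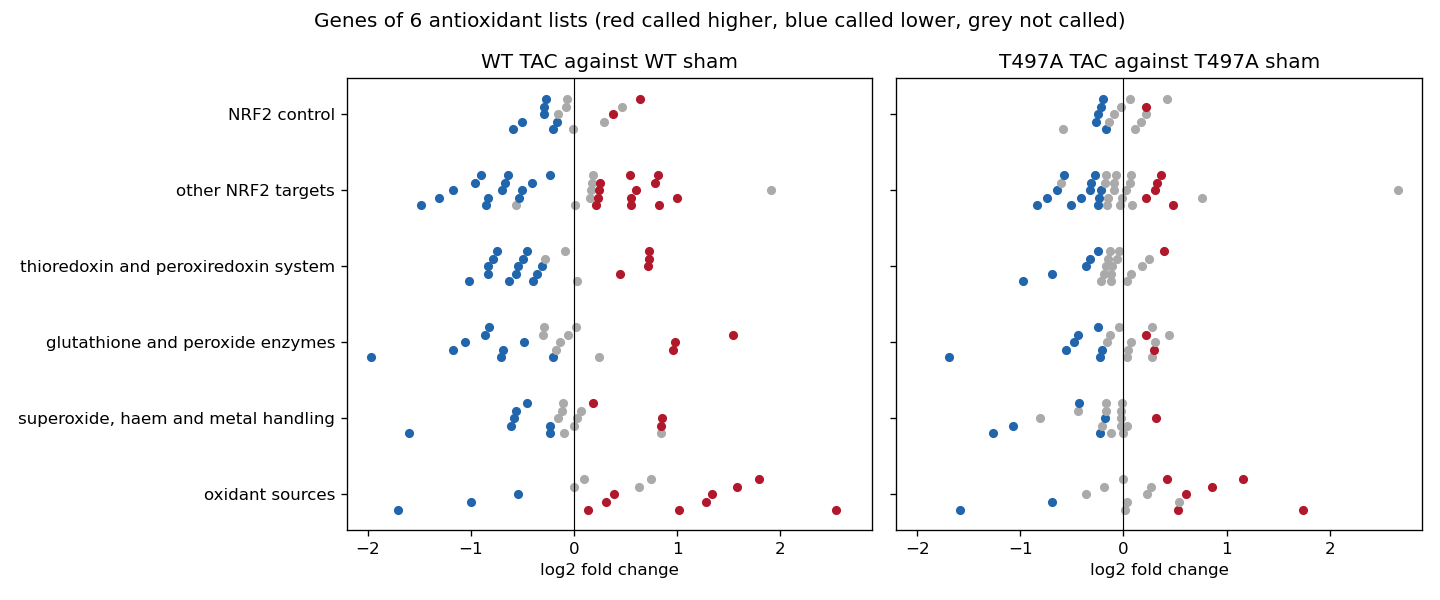
Log2 fold change (horizontal axis) of every tested gene of 6 antioxidant lists (rows) in WT TAC against WT sham and in T497A TAC against T497A sham, 1 point per gene, coloured by call. In WT the thioredoxin list has 13 of 20 genes called lower and the oxidant source list 9 of 16 called higher. The lists were chosen with earlier results of these data known, so these counts are a description. Over all genes tested 24% were called lower and 25.9% higher in WT.

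Over all genes tested, 25.9% were higher and 24% lower in WT, and 12.9% and 11.4% under the T497A label. Between the sham groups these shares were 2.99% and 2.8%. They stand beside the counts of every list that follows. Because the lists were chosen with earlier results of these data known, those counts and the adjusted p-values of the genes named are a description. Among other NRF2 targets, 12 of 33 were called higher and 14 lower after TAC in WT, with a median of 0.15. The 3 genes named here had the smallest p-values of the list, and all encode glutathione transferases, which couple glutathione to reactive compounds as GSTA3 does. Gstm1 fell from 151, 152 and 156 to 56.5, 48.9 and 58.8 CPM, at log2 -1.49 ± 0.078 (edgeR adjusted p = 7.6e-09). Mgst1 stood at log2 -1.17 ± 0.078 (edgeR adjusted p = 5.9e-08) and Gstm2 at -0.84 ± 0.058 (edgeR adjusted p = 7.4e-08). For the T497A groups 5 were higher and 12 lower: Gstm1 fell by 0.57 (edgeR adjusted p = 0.00011) and Gstm2 by 0.51 (edgeR adjusted p = 2.7e-05). Members of the Gstm family are similar in sequence, so reads may have been split between them.

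Ephx1, a microsomal epoxide hydrolase, moved the other way under the 2 labels. It rose in WT from 40.96, 39.2 and 45.02 to 60.4, 60.7 and 61.8 CPM and fell from 51.7, 54.1 and 53.9 to 41.1, 40.5 and 38.4 CPM under the T497A label, with an interaction of -0.96 ± 0.085 on the log2 scale (edgeR adjusted p = 3.7e-06). Mgst1 did the reverse, from 16.6, 20.1 and 18.9 CPM in T497A sham to 25.5, 23.2 and 22.9 in T497A TAC, with an interaction of 1.53 ± 0.11 (edgeR adjusted p = 7.6e-07). Both also differed between the sham groups, Ephx1 by 0.35 ± 0.06 (edgeR adjusted p = 0.0033) and Mgst1 by -0.80 ± 0.078 (edgeR adjusted p = 4e-05). For Gsta3 the T497A sham libraries were the highest of the 4 groups, whereas for Ephx1 and Mgst1 they lay between other groups.

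In the thioredoxin and peroxiredoxin list, 4 of 20 were called higher and 13 lower in WT, with a median of -0.42. Prdx3, the mitochondrial peroxiredoxin that works beside SOD2, stood at log2 -0.84 ± 0.077 (edgeR adjusted p = 7.9e-07). Prdx5 stood at -0.79 ± 0.065 (edgeR adjusted p = 3e-07) and Msrb2, a mitochondrial methionine sulfoxide reductase, at -1.01 ± 0.10 (edgeR adjusted p = 1.5e-06). All 3 were higher in T497A TAC than in WT TAC, by 0.64 for Prdx3 and Prdx5 and 0.70 for Msrb2. In T497A 1 of the 20 was higher and 5 lower, and Sesn1 had the smallest p of these, at -0.70 ± 0.087 (edgeR adjusted p = 6.9e-05). Cardiomyocyte markers moved with this list, as given for Sod2 and Cat.

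Among glutathione and peroxide enzymes, 3 of 19 were called higher and 9 lower in WT, with a median of -0.29. Gstk1, a mitochondrial and peroxisomal glutathione transferase, fell from 62.3, 64.97 and 60.4 to 16.04, 14.3 and 17.6 CPM, at log2 -1.97 ± 0.076 (edgeR adjusted p = 1.1e-09). Oplah, which returns oxoproline to glutamate in the glutathione cycle, stood at -1.06 ± 0.066 (edgeR adjusted p = 3.7e-08). Gpx1, the cytosolic relative of Gpx3, rose from 47.9, 51.1 and 51.02 to 97.8, 104 and 94.7 CPM, at 0.98 ± 0.062 (edgeR adjusted p = 3.8e-08). Gpx1 also rose in T497A, by 0.30 ± 0.061 (edgeR adjusted p = 0.0029), whereas Gpx3 was not called. In that comparison 2 of 19 were higher and 7 lower, among them Chac1, which degrades glutathione, at -1.69 ± 0.31 (edgeR adjusted p = 0.002) and Gstt1 at -0.48 ± 0.077 (edgeR adjusted p = 0.00049).

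Of the superoxide, haem and metal handling list, 3 of 18 were called higher and 7 lower in WT, with a median of -0.11. Sod1, the cytosolic superoxide dismutase, fell less than Sod2, from 187, 188 and 193 to 129, 118 and 125 CPM, at log2 -0.61 ± 0.052 (edgeR adjusted p = 4.4e-07). Nnt, which makes mitochondrial NADPH for peroxide removal, stood at -1.59 ± 0.20 (edgeR adjusted p = 1.4e-05) at no more than 3.84 CPM in WT. Fech, whose enzyme inserts iron into protoporphyrin to form haem, stood at -0.56 ± 0.07 (edgeR adjusted p = 1.1e-05). After TAC in T497A 1 was higher and 5 lower, with Mt1, a metallothionein, at -1.26 ± 0.17 (edgeR adjusted p = 0.00057). Mt1 was at 367, 240.3 and 295 CPM in T497A sham, above all 9 other libraries, and was 1.17 ± 0.17 higher there than in WT sham (edgeR adjusted p = 0.0038).

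With TMM factors, oxidant sources were the only 1 of the 6 lists with more genes called higher than lower in WT, 9 against 3 of 16, with a median of 0.51. Ncf1, a subunit of the phagocyte NADPH oxidase, rose from 3.62, 4.86 and 4.94 to 12.3, 16.6 and 11.1 CPM, at log2 1.58 ± 0.19 (edgeR adjusted p = 8.5e-06), beside the macrophage markers given with Hmox1. Maob, a mitochondrial monoamine oxidase that releases hydrogen peroxide, fell from 63.6, 69.1 and 64.7 to 20.2, 22.2 and 18.00 CPM, at -1.71 ± 0.10 (edgeR adjusted p = 2.3e-08). Between the TAC groups Nox4, a constitutively active NADPH oxidase, was at 9.07, 13.1 and 8.90 CPM in WT TAC and 3.73, 2.66 and 1.602 in T497A TAC, at -1.96 ± 0.31 (edgeR adjusted p = 0.00035). Under the T497A label 6 were higher and 2 lower, with Xdh, which forms superoxide and urate, at -1.58 ± 0.16 (edgeR adjusted p = 5.2e-05) and Nos2, the inducible nitric oxide synthase, at 1.74 ± 0.22 (edgeR adjusted p = 0.00021). T497A sham lay outside the range of the other groups in both. Xdh was at 222 to 314 CPM there and at most 145 CPM elsewhere. Nos2 was at 4.68 to 6.46 CPM there and at least 7.77 CPM elsewhere. Other groups differed as well. Xdh was also called lower in WT TAC than in WT sham, at 0.4996 of the sham level (edgeR adjusted p = 0.00025). Nos2 was not called in that comparison. Between the TAC groups Nos2 was higher in T497A TAC, at log2 0.62 ± 0.21 (edgeR adjusted p = 0.042), and Xdh was not called.

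Of the 15 genes that control NRF2, 2 were called higher and 7 lower in WT, with a median of -0.15. Cul3, the ubiquitin ligase scaffold that KEAP1 uses, stood at log2 -0.59 ± 0.055 (edgeR adjusted p = 9.3e-07) and Nfe2l1, the NRF2 relative, at -0.50 ± 0.055 (edgeR adjusted p = 3.7e-06). Dpp3, which competes with NRF2 for KEAP1, rose by 0.64 ± 0.077 (edgeR adjusted p = 8.9e-06). After TAC in T497A 1 was higher and 5 lower, Keap1 and Bach1 among them. Between the sham groups 1 was higher and 1 lower: Maff, a small MAF partner, at 1.18 ± 0.23 (edgeR adjusted p = 0.013) and Btrc at -0.30 ± 0.072 (edgeR adjusted p = 0.023). The Maff call was lost without WT sham 1 or 2 (log2 1.15 to 1.17, adjusted p 0.059 to 0.062). The Btrc call was lost without WT sham 2 or 3 or T497A sham 1 or 3 (log2 -0.31 to -0.24, adjusted p 0.062 to 0.11).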

How the data were processed

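RNA of 12 left ventricle samples was purified on RNeasy columns, made into KAPA mRNA HyperPrep libraries and sequenced on a NextSeq2000 from a single end, per the labels' protocols. The authors deposited 1 table of raw counts per gene. Trim Galore 0.6.4, STAR 2.7.3a, featureCounts of Subread 1.6.3 and limma 3.50.3 are named in the submitters' processing notes, along with the builds mm10 and GRCh38 without their role. For the annotation release, the strand setting and reads with several places, nothing is given in the sources used here.

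Groups and replicate numbers came from the library names. The deposited counts were filtered with filterByExpr, scaled with TMM factors and fitted with edgeR 4.0.16 (quasi-likelihood, robust, 1 mean per group over all 12 libraries, R 4.3.3), with Benjamini-Hochberg adjustment over 17699 genes and a call at an adjusted p under 0.05. An exact permutation test of 3 against 3 libraries cannot go below 0.1, so none is given. No 2 replicates agreed within counting noise: the lowest chi-square per degree of freedom between 2 libraries of a group was 10.6. The fit was checked before use on simulated counts in which a small set of genes changed, in WT TAC only. That check does not test the choice of scaling where many genes move.

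The 10 genes, the 6 pathway lists and the marker lists (macrophage, neutrophil, erythroid, fibroblast, endothelial, mural, adipocyte, atrial and ventricular cardiomyocyte) were chosen with earlier results of these data known. Among all listed symbols, 1 had several rows in the count table, and only its first row was used. The text names the 10 genes, Nfe2l2, Keap1, Bach1 and Txnip in any comparison and, from each pathway list and comparison, up to 3 called genes with the smallest p and a mean of at least 1 CPM, and Prkca, Nppa, Xist and Ddx3y for the labels. In WT TAC against WT sham the lists not described in the report gave 1 of 3 neutrophil, 1 of 6 erythroid, 4 of 5 endothelial and 3 of 5 mural markers higher, and 0 of 5 adipocyte and 0 of 3 atrial markers in either direction. In T497A TAC against T497A sham 3 of 5 adipocyte and 3 of 3 atrial markers were lower, 4 of 5 endothelial and 1 of 5 mural markers higher, 1 of 6 erythroid lower and 0 of 3 neutrophil markers called. Gene coordinates, exon lengths and 50-base windows are those of GENCODE M21 on GRCm38, to which 54349 of 55401 identifiers matched with their version, and 55141 without it. Promoter sequences are RefSeq's. Alternatives covered DESeq2 1.42.0, limma 3.58.1 with voom, other filters and scalings, fewer groups, the replicate number as a term, and each library left out. Figures were drawn with matplotlib 3.10.9.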

Additional observations from a re-analysis of the deposited data

Results flagged for a closer look

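The interaction of genotype and surgery was called for 5 of the 10 genes. The values were -1.16 for Hmox1, -0.80 for Gsta3, -2.05 for Gpx3, 0.79 for Sod2 and 0.44 for Cat. They are on the log2 scale of T497A minus WT. Over all genes tested, the interaction was called higher for 15.3% and lower for 14.2%. These 5 genes were chosen with such levels known, so the values are a description. All of them draw on the T497A sham libraries, whose Xist and Ddx3y levels set them apart. Of 104 genes far apart between the sham groups, 95 turned sign between the TAC groups. A different response to TAC cannot be told apart from such a turn.

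Among the pathway genes named by rule, the interaction was positive for Gstk1 (1.72), Nos2 (1.74), Mgst1 (1.53), Nnt (1.15), Maob (1.01), Gstm1 (0.91), Msrb2 (0.89), Oplah (0.85), Prdx5 (0.74), Prdx3 (0.73), Cul3 (0.42), Sod1 (0.39) and Nfe2l1 (0.36). It was negative for Ncf1 (-1.56), Mt1 (-1.17), Gpx8 (-1.12), Ephx1 (-0.96) and Dpp3 (-0.47). Their adjusted p-values by edgeR's quasi-likelihood test ran from 1.7e-07 (Gstk1) to 0.0065 (Nnt).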

How the results depend on the processing

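Over all alternatives, the fold changes of the 10 genes gave 1110 comparisons with the reported values. Of these, 1058 kept direction and side of the threshold, 31 lost a call, 20 gained one and 1 turned. For the other named genes the numbers were 2134, 98, 9 and 3 of 2244. Every turn came from library totals without TMM factors, which moved the median of all genes by up to 0.33: in WT TAC against WT sham Gclm was then 0.22, Keap1 0.045 and Bach1 0.064, and between the TAC groups Keap1 was -0.086. On library totals the count of the 10 genes called higher in WT was 7, that called lower between the TAC groups was 7, and the interaction gave 1 higher and 8 lower. With TMM factors 4576 genes were higher and 4255 lower in WT, with library totals 8466 and 1891. Between the TAC groups these numbers were 3156 and 3165 against 1458 and 6874, and for the interaction 2700 and 2518 against 1175 and 5694.

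With each library left out in turn, the count called lower after TAC in T497A ran from 1 to 3 and the count called higher between the sham groups from 1 to 2. The Srxn1 interaction was called in 4 of 21 alternatives. Between the sham groups 13 pathway genes were called higher by DESeq2 and 12 by limma-voom, against 6 by edgeR. The share of all genes called is not given for DESeq2, limma-voom or the fits without a library, so nothing is read from these counts.

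Same-numbered libraries did not deviate together: none of 18 pairs had a correlation over 0.1 (-0.11 to 0.074), and 3 libraries correlated best with their own number. With the replicate block, 1 of the 10 genes was called higher between the sham groups, Hmox1 losing its call at 0.56. The share of all genes in that fit is not given, and nothing is read from that count.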
